A study of Homo sapiens with 8 samples.

Results

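The genes described here are 29 genes of cholesterol metabolism in Rh41 cells, a human line established from an alveolar rhabdomyosarcoma (a sarcoma with features of muscle lineage) and positive for the PAX3-FOXO1 fusion. They were named as a list and found by symbol among the 60234 rows of the deposited table, each on a single Ensembl identifier. The list holds 19 enzymes of cholesterol synthesis (8 of the mevalonate part and 11 of the sterol part), 4 genes of sterol transport, storage and efflux, and 6 regulators. Their place in the pathway put 28 of them on the list. NCEH1 was chosen by its measured CPM in the siG9a and control libraries, being among the largest rises of this same comparison, so its values below are a description and support nothing. The name of the list speaks of uptake, but none of the 29 encodes a lipoprotein receptor.

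The libraries fall into 4 labelled control (replicates 1 to 4) and 4 labelled siG9a (replicates 1 to 4), in which G9a (gene EHMT2), an enzyme that methylates lysine 9 of histone H3, was knocked down. All 8 come from the same fusion-positive line. The sample labels write siG9a and the series title writes shG9a, and the kind of RNA used, the time after knockdown and what the control cells received are not given in the sources used here. RNA was read with QuantSeq, which sequences the 3′ end of each polyadenylated transcript, so a level does not depend on transcript length. Comparing levels between genes stays limited where exons overlap another gene or pseudogenes exist. Levels are in CPM, the reads of a gene scaled to the same library total.

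Cells make cholesterol from acetyl-CoA. The mevalonate part of the pathway builds farnesyl diphosphate, which also feeds protein prenylation, dolichol and ubiquinone, and the sterol part turns it into squalene, lanosterol and cholesterol. Most of these enzymes are controlled together by the transcription factor SREBP2, encoded by SREBF2: when membranes are rich in sterol, INSIG proteins hold SREBP and its escort SCAP in the endoplasmic reticulum, and when sterol falls SREBP moves to the Golgi, is cleaved and enters the nucleus. SREBP acts at sterol regulatory elements, commonly beside a CCAAT box bound by NF-Y. Liver X receptors, among them the product of NR1H2, respond to oxysterols and drive export genes such as ABCA1.

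The libraries held from 1458825 to 1938665 reads, and a single read was worth 0.516 to 0.685 CPM. EHMT2 was at 57.6, 68.1, 87.3 and 88.3 CPM in control replicates 1 to 4 and at 19.6, 35.1, 33.1 and 58.5 CPM in siG9a. It was lower in siG9a in 4 of 4 pairs, but the groups overlapped, siG9a replicate 4 lying above control replicate 1. Mean EHMT2 was 75.3 CPM in control (SD 15.05, n = 4) against 36.6 CPM after knockdown (SD 16.2, n = 4). On the log2 scale the change was −1.10 ± 0.31 (SE), with a limma adjusted p of 0.191 without a block and 0.000472 with the replicate number as a block. The replicate 3 libraries stood apart in both groups. The summed level of 9 rhabdomyosarcoma and muscle markers was 343 CPM in control replicate 3 against 2173 to 2582 CPM in the other control libraries, and 241 CPM in siG9a replicate 3 against 996 to 1558 CPM. The 5 neural or embryonic kidney line markers, nearly all NEFM and NEFL, summed to 9606 and 8935 CPM in the replicate 3 libraries. Their sum was 184 and 222 CPM in replicate 1 of control and siG9a, and 1817 to 2951 CPM in replicates 2 and 4. Replicate 1 thus also stood apart in these markers, on the low side. The 7 fibroblast markers summed to 118 and 51.95 CPM in replicate 3 and to 146 to 407 CPM elsewhere. In control this rested on COL3A1, at 54.7 CPM in replicate 3 against 210 to 341 CPM. COL1A1 was at 55.3 CPM there, against 44.65 to 54.7 CPM. In siG9a both were lowest in replicate 3. The 5 epithelial markers summed to 75.6 CPM in control replicate 3 against 10.3 to 32.7 CPM in the other control libraries. In siG9a their sum was 43.96 CPM in replicate 3 against 23.5 to 30.9 CPM. Most of it in replicate 3 was KRT18, at 46.1 CPM in control and 29.1 CPM in siG9a. KRT8 was also highest there in both groups. EPCAM was at 0 in both replicate 3 libraries, and CDH1 was highest in replicate 4 of each group. KRT19 was highest in control replicate 3 (14.1 CPM) but lowest in siG9a replicate 3 (1.71 CPM). Leukocyte, endothelial, and liver and adipose markers each summed to at most 2.08 CPM in any library, and KDR, ADIPOQ and PLIN1 were at 0 in all 8. Results are therefore also given without replicate 3.

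Promoter sequences were matched by symbol in a RefSeq table (GRCh38.p14) that gives 250 bases before to 50 bases after each start, 300 bases in all. It held 34 windows for 26 members and none for ACAT2, FDFT1 and SQLE. Only letters of a fixed motif were searched, on both strands: TCACNCCAC for the sterol regulatory element and CCAAT for the NF-Y box, which do not overlap each other here. CCAAT was found in 21 of the 34 member windows (61.8%), belonging to 19 genes, and in 34.6% of all 35116 windows. TCACNCCAC was found in 1 of the 34 (2.94%), that of SREBF2, and in 1.13% of all windows. The stretches below show the motif matches in capitals, 5′ to 3′ on the strand of the gene. SREBF2 is shown because it carries both motifs, MVK for its 5 CCAAT boxes, INSIG1 because its level varied most between libraries among the regulators, and NCEH1 and SOAT1 because they are the members whose groups did not overlap.
SREBF2 (chr22:41832950-41833020, + strand): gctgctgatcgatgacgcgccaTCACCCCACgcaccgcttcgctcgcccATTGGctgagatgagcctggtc
MVK (chr12:109573579-109573754, + strand): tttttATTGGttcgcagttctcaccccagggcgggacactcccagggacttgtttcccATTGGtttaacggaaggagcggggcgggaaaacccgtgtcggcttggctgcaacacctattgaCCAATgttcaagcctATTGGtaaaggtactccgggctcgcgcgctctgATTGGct
INSIG1 (chr7:155297683-155297733, + strand): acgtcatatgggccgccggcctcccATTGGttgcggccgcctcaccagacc
NCEH1 (chr3:172711082-172711142, − strand): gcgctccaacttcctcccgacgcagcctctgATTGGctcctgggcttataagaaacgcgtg
SOAT1 (chr1:179293682-179293742, + strand): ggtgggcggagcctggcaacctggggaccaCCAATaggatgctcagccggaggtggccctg
In SREBF2 the sterol regulatory element began 133 bases and the CCAAT box 106 bases before the start. The nearest CCAAT box of NCEH1 began 44 bases before its start and that of SOAT1 85 bases. A match is a description of letters, and no library here measured binding.

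Cholesterol genes were compared between the siG9a and control libraries to ask which changed with the knockdown of G9a. Of the 19 enzymes of synthesis, 11 had a log2 change above and 8 below 0, with a median of 0.11, and 0 of 19 passed the test with or without the replicate block. NCEH1, which frees cholesterol from stored ester, was higher in every siG9a library than in any control library, and so was SOAT1, the enzyme of the opposite reaction, by a smaller margin. Groups thus did not overlap for 2 of 28 members, a share close to the 7.32% of all genes for which this held, and NCEH1 was chosen for its rise. Of the 29 members, 28 reached a mean of 1 CPM over the 8 libraries and were tested, and ABCA1 did not. At an adjusted p under 0.05, limma without a block called 0 of the 28 members and 0 of 15092 genes (0%); at an unadjusted p under 0.05 stood 1 member, NCEH1, and 12.5% of all genes. On the recovered reads without a block, edgeR's quasi-likelihood test called 0 genes and DESeq2 292 genes (1.93%), 0 of them members. With the block edgeR called 1 member (11.3% of all genes) and DESeq2 0 members (6.2% of all genes), NCEH1 having no adjusted p there. With the replicate number as a block, limma called 1 of 28 members, NCEH1, where 11.4% of all genes were called (4.86% higher and 6.52% lower). Since NCEH1 was chosen from this contrast, nothing is read from that count. At an unadjusted p under 0.05 in the blocked fit stood 4 of 28 members (ACAT2, MVK, EBP and NCEH1) and 25.5% of all genes.

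The median log2 change of the 28 members was 0.22, with 20 above and 8 below 0, against a median of 0.01 over all genes, 51.1% of them above 0. By replicate number the median of the members was 0.40, 0.24, 0.25 and 0.01. Higher in 4 of 4 pairs were 6 members (14.9% of all genes) and lower in 4 of 4 pairs were 0 (15.3% of all genes). These counts and medians include NCEH1, which was chosen for its rise. Without NCEH1, 19 of 27 members lay above 0, with a median of 0.21, and 5 were higher in 4 of 4 pairs. Under edgeR and DESeq2, with and without the block, between 19 and 21 of the 28 lay above 0, and 15 lay above 0 in the blocked fit without replicate 1.

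**Figure D1:**
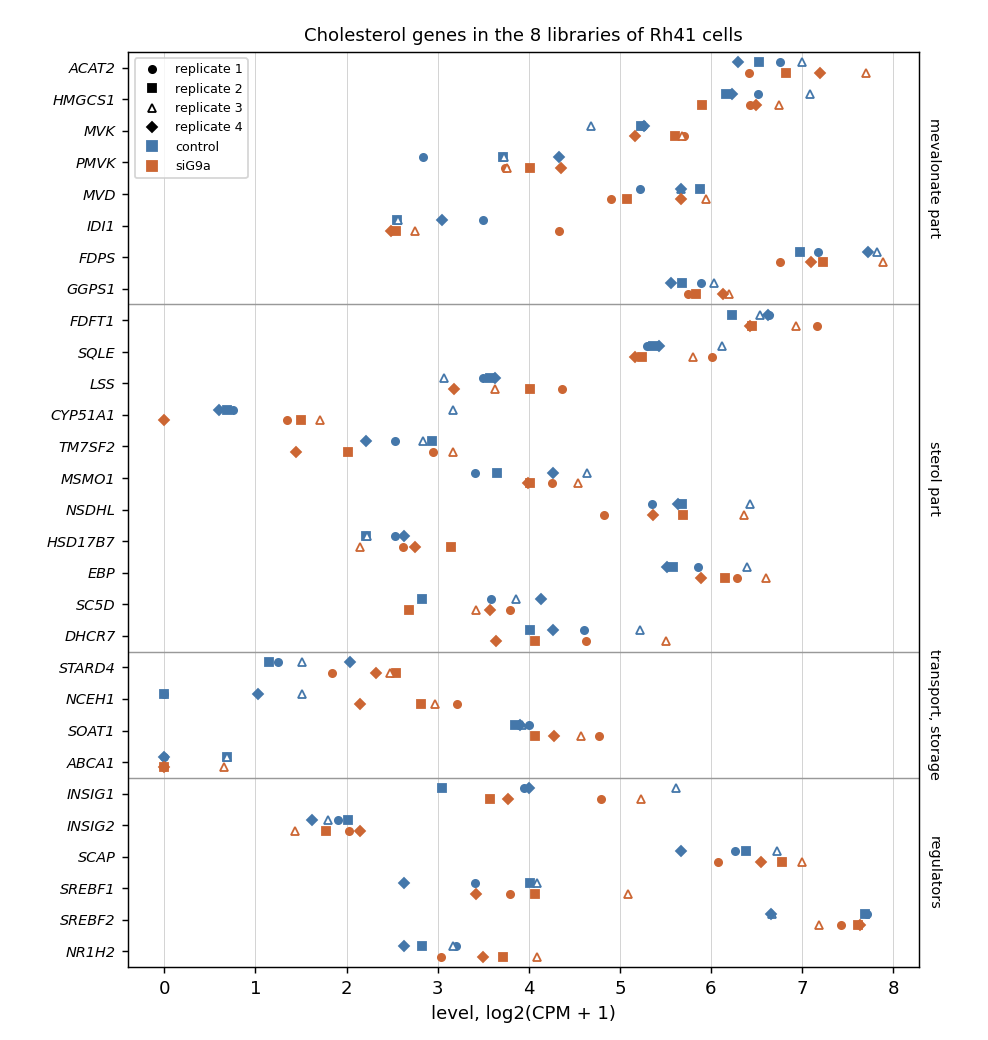
Level of each of the 29 cholesterol genes, as log2(CPM + 1), in the 4 control (blue) and 4 siG9a (orange) libraries, with a marker shape per replicate and open triangles for replicate 3. The groups overlap for all members except NCEH1 and SOAT1, and open triangles often stand at the right end of a row.

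The 8 members of the mevalonate part had a median log2 change of 0.15, 5 above and 3 below 0, and 0 of 8 were called. Their summed level was 489, 448, 644 and 521 CPM in control replicates 1 to 4 and 441, 477, 751 and 549 CPM in siG9a. The replicate 3 library was highest in each group, and the groups overlapped.

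ACAT2 (ENSG00000120437) encodes the cytosolic thiolase that joins acetyl-CoA units at the start of the pathway. It measured 108, 91.2, 127 and 77.4 CPM in control replicates 1 to 4 and 84.6, 113, 207 and 146 CPM in siG9a. It was higher in siG9a in 3 of 4 pairs and lower in replicate 1. The log2 change was 0.39 ± 0.28 (SE) without a block and 0.39 ± 0.18 with it, with limma adjusted p-values of 0.609 and 0.163. In the blocked fit without replicate 1 the change was 0.64 with an adjusted p of 0.0332, the only call of a member other than NCEH1 in any fit. Exons of ACAT2 overlap those of TCP1 and SOD2 on the other strand, and the strand setting of the counting is not given in the sources used here.

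HMGCS1, the synthase that makes HMG-CoA, measured 90.5, 70.5, 135 and 74.25 CPM in control and 85.1, 58.7, 106 and 88.9 CPM in siG9a. The groups covered much the same range, and the log2 change was −0.11 with a blocked 95% interval of −0.45 to 0.23. MVK, the kinase that phosphorylates mevalonate, measured 37.02, 36.5, 24.6 and 37.4 CPM in control and 51.1, 47.8, 50.2 and 34.98 CPM in siG9a. In 3 of the 4 siG9a libraries MVK stood above all control libraries, and siG9a replicate 4 stood among them. The log2 change of siG9a against control was 0.44 ± 0.24 (SE) without a block and ± 0.21 with it, with limma adjusted p-values of 0.501 and 0.184.

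FDPS, which makes farnesyl diphosphate, was the highest synthesis gene, at 143, 125, 226 and 209.8 CPM in control and 107, 149, 236 and 136 CPM in siG9a. The groups overlapped widely and its log2 change was −0.18, with a blocked 95% interval of −0.51 to 0.15. GGPS1, which extends farnesyl to geranylgeranyl diphosphate, measured 58.3, 50.4, 64.6 and 46.2 CPM in control and 52.6, 56.3, 72.5 and 69.4 CPM in siG9a. On the log2 scale the change was 0.19, blocked interval −0.18 to 0.56. FDPS has 8 named pseudogenes, so reads of near-identical copies may have been split or lost.

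The other members of this part were lower in level. MVD, the decarboxylase that yields isopentenyl diphosphate, ranged from 28.9 to 60.5 CPM over the 8 libraries with a log2 change of −0.21. PMVK, the second kinase, ranged from 6.17 to 19.5 CPM with a log2 change of 0.31. IDI1, the isomerase, ranged from 4.59 to 19.1 CPM with a log2 change of 0.11, the highest value being siG9a replicate 1. The blocked 95% intervals of all 8 members of the mevalonate part lay within 1 log2 unit of 0 in each direction, and 6 of the 8 did without a block.

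The sterol part, from squalene to cholesterol, had a median log2 change of 0.00, with 6 of 11 members above and 5 below 0, and 0 of 11 were called. The median by replicate number was 0.43, 0.22, −0.07 and −0.28, so the pairs did not share a direction. The summed level was 298, 266, 428 and 307 CPM in control and 398, 309, 455 and 271 CPM in siG9a. Replicate 3 was again the highest in each group.

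EBP, the sterol isomerase, came nearest to a shared direction. It measured 56.9, 46.8, 83.02 and 44.65 CPM in control and 76.9, 70.2, 96.5 and 58.5 CPM in siG9a, higher in 4 of 4 pairs, while the groups overlapped through control replicate 3. The log2 change of siG9a against control was 0.40 ± 0.25 (SE) without a block and ± 0.17 with it, with limma adjusted p-values of 0.558 and 0.134.

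FDFT1, squalene synthase and the first step committed to sterols, measured 98.7, 74.1, 92.2 and 98.1 CPM in control and 143, 86.55, 121 and 84.9 CPM in siG9a. SQLE, squalene epoxidase, measured 38.4, 40.1, 68.9 and 42.06 CPM in control and 63.45, 36.9, 54.8 and 34.98 CPM in siG9a, a log2 change of 0.00 with a blocked interval of −0.41 to 0.42. SQLE was higher in siG9a in replicate 1 and lower in replicates 2 to 4. NSDHL, which removes C4 methyl groups together with MSMO1, measured 39.8, 50.4, 84.9 and 48.8 CPM in control and 27.3, 50.8, 81.1 and 40.15 CPM in siG9a, with a log2 change of −0.21.

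DHCR7, the last reductase of one branch, ranged from 15.2 to 36.3 CPM in control and from 11.5 to 44.5 CPM in siG9a, and MSMO1 from 9.6 to 23.98 and from 14.9 to 22.3 CPM. LSS, lanosterol synthase, ranged from 7.38 to 11.4 CPM in control and from 8.03 to 19.6 CPM in siG9a. SC5D, the desaturase, ranged from 6.08 to 16.6 CPM in control and from 5.45 to 12.9 CPM in siG9a. Their log2 changes were −0.06 for DHCR7, 0.21 for MSMO1, 0.35 for LSS and −0.23 for SC5D.

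TM7SF2, HSD17B7 and CYP51A1 rested on the fewest reads of the sterol part. TM7SF2 ranged from 1.72 to 7.99 CPM and HSD17B7 from 3.43 to 7.87 CPM over the 8 libraries. CYP51A1, lanosterol demethylase, stood at 0.69, 0.61, 7.99 and 0.52 CPM in control and 1.55, 1.82, 2.28 and 0 CPM in siG9a, of which 13 of 16 control reads came from replicate 3. Of the 11 members of the sterol part, 8 had a blocked 95% interval within 1 log2 unit of 0, and CYP51A1, TM7SF2 and HSD17B7 did not. Without a block 6 of the 11 did. On log2(CPM + 1), 1 unit is more than a 2-fold change of a low gene. A 2-fold change can therefore also lie within the interval of a low member among the 8.

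**Figure D2:**
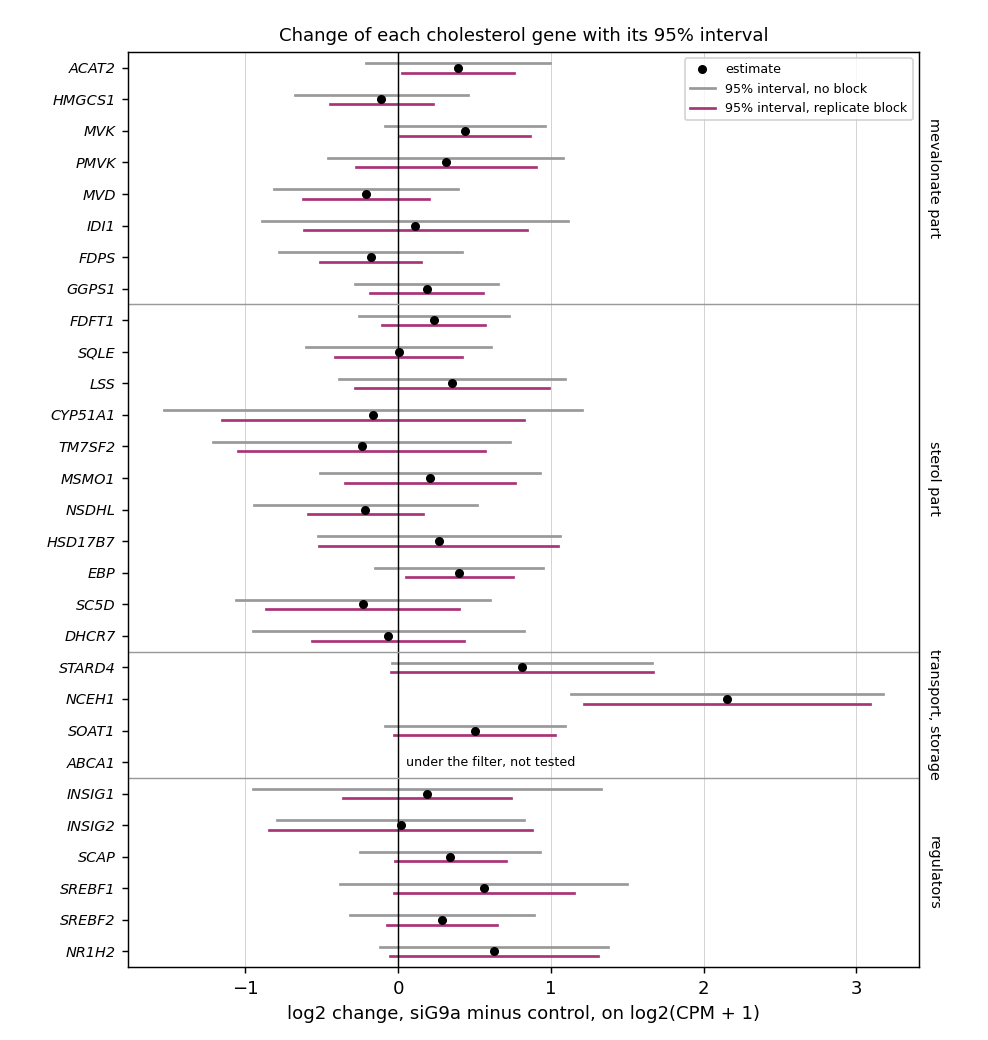
Log2 change of each tested member, siG9a minus control on log2(CPM + 1), with 95% intervals from limma without (grey) and with (purple) the replicate block. The intervals of the synthesis enzymes lie around 0 in the fit without the block, and NCEH1 stands apart at 2.15.

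Free cholesterol is stored as ester by SOAT1 and released from it by NCEH1. NCEH1 (ENSG00000144959) was at 0, 0, 1.84 and 1.04 CPM in control replicates 1 to 4, that is 0, 0, 3 and 2 reads. In siG9a it was at 8.25, 6.05, 6.85 and 3.44 CPM, from 16, 10, 12 and 6 reads. The 95% Wilson intervals of the siG9a libraries ran from 1.58 to 13.4 CPM and those of the control libraries from 0 to 5.42 CPM. All 4 siG9a libraries were above all 4 control libraries, and the lowest siG9a library, replicate 4, lay nearest to control. Control averaged 0.72 CPM (SD 0.89, n = 4) and siG9a 6.15 CPM (SD 2.02, n = 4). Pooled over libraries, 5 control reads stood against 44 siG9a reads, a ratio of 8.27 with an exact 95% interval of 3.29 to 26.7 that covers counting error only. On the log2(CPM + 1) scale the change was 2.15 ± 0.47 (SE), and 2.38 without both replicate 3 libraries. At these read numbers the value depends on the pseudocount, from 0.96 with 5 CPM to 3.95 with 0.1 CPM.

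SOAT1 (ENSG00000057252) measured 15.1, 13.4, 14.1 and 14.02 CPM in control and 26.3, 15.7, 22.8 and 18.35 CPM in siG9a. The control libraries lay close together and all 4 siG9a libraries lay above them, siG9a replicate 2 only just. Of all genes, 3.88% were higher and 3.45% lower without overlap. The SOAT1 means were 14.2 ± 0.70 and 20.8 ± 4.69 CPM (SD, n = 4 each). Across all genes the log2 change of 0.50 ± 0.27 (SE) did not pass, with limma adjusted p-values of 0.486 without and 0.221 with the block.

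STARD4, which carries cholesterol between membranes, measured 1.37, 1.22, 1.84 and 3.12 CPM in control and 2.58, 4.84, 4.57 and 4.01 CPM in siG9a. It was higher in 4 of 4 pairs, from 13 reads in control to 28 in siG9a, and control replicate 4 lay above siG9a replicate 1. On the log2 scale the change was 0.81 ± 0.39 (SE), with limma adjusted p-values of 0.426 and 0.227 without and with the block. STARD4 was singled out here after its values were seen, as were SCAP and NR1H2 below. ABCA1, the exporter of cholesterol to apolipoproteins, had 2 reads in all control libraries and 1 in all siG9a libraries, and no comparison can be made at this depth.

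The 6 regulators all had a log2 change above 0, with a median of 0.31, and 0 of 6 were called. Their medians by replicate number were −0.02, 0.22, 0.40 and 0.83, and SREBF1 was the only regulator higher in 4 of 4 pairs. In the blocked fit without replicate 1, INSIG1 and INSIG2 were below 0 (−0.03 and −0.02).

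SREBF2, whose product SREBP2 drives the synthesis genes and whose promoter holds the sterol regulatory element printed above, was among the highest members. It measured 209.07, 205, 100.9 and 99.7 CPM in control and 172, 194.9, 145.02 and 198 CPM in siG9a. The control libraries fell into a high pair (replicates 1 and 2) and a low pair (replicates 3 and 4), with all siG9a libraries between them. Its log2 change was 0.29 ± 0.28 (SE), limma adjusted p 0.729 without and 0.324 with the block. SREBF1, the paralog whose products act mainly on fatty acid genes, measured 9.6, 15.2, 15.99 and 5.19 CPM in control and 12.9, 15.7, 33.1 and 9.75 CPM in siG9a. The groups overlapped, siG9a replicate 3 being the highest, and the log2 change was 0.56 ± 0.43 (SE) with adjusted p-values of 0.651 and 0.222. The level of SREBF2 lay above that of SREBF1 in all 8 libraries, with control means of 154 ± 61.8 and 11.5 ± 5.07 CPM and siG9a means of 177 ± 24.5 and 17.9 ± 10.4 CPM (SD, n = 4). Exons of SREBF2 overlap those of SREBF2-AS1 and exons of SREBF1 those of RAI1, on the other strand in both cases.

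INSIG1, the sterol-responsive anchor of SCAP and itself a target of SREBP, measured 14.4, 7.29, 47.96 and 15.1 CPM in control and 26.8, 10.9, 36.5 and 12.6 CPM in siG9a. Within each group replicate 3 was the highest and replicate 2 the lowest, and the highest control library was 6.58 times the lowest. On the log2 scale the change was 0.19 with a blocked 95% interval of −0.36 to 0.74. It was −0.18 without control replicate 2 and −0.11 without siG9a replicate 3, so no direction can be given. INSIG2, the paralog that is little controlled by SREBP, measured 2.74, 3.04, 2.46 and 2.08 CPM in control and 3.09, 2.42, 1.71 and 3.44 CPM in siG9a, a log2 change of 0.02. Its 17 and 19 reads leave a blocked interval of −0.84 to 0.88.

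SCAP, the escort of SREBP, measured 76.1, 82.6, 104.5 and 49.85 CPM in control and 66.5, 109, 127 and 92.9 CPM in siG9a. The log2 change of siG9a against control was 0.34 with a blocked interval of −0.02 to 0.70, and it was lower in replicate 1. NR1H2, the liver X receptor beta gene, measured 8.23, 6.08, 7.99 and 5.19 CPM in control and 7.22, 12.1, 15.99 and 10.3 CPM in siG9a. In 3 of 4 siG9a libraries it stood above all control libraries, and siG9a replicate 1 lay among them. Its log2 change was 0.63 ± 0.34 (SE), with limma adjusted p-values of 0.493 and 0.238.

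**Figure D3:**
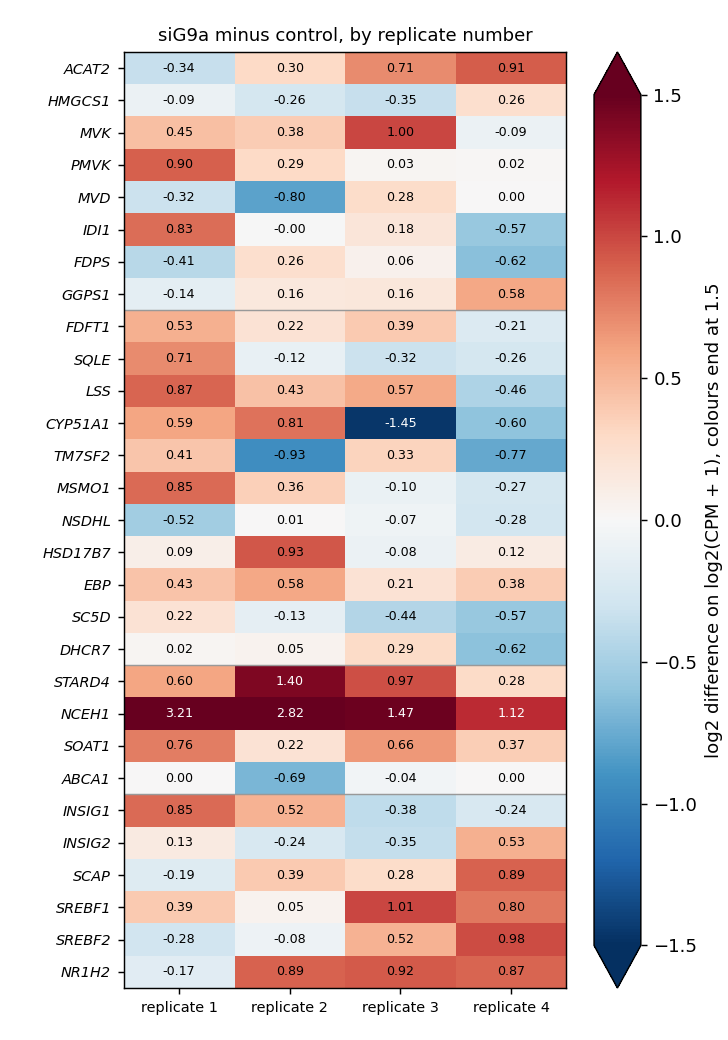
Difference between the siG9a and the control library with the same replicate number, on log2(CPM + 1), for all 29 members. NCEH1, SOAT1, STARD4, EBP, PMVK and SREBF1 are above 0 in all 4 columns, while most sterol part enzymes change sign between replicates 1 and 4.

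Many members were high in the replicate 3 libraries of both groups. Of the 28 tested, 12 were highest in replicate 3 in both groups, where 20.1% of all genes were, and 0 were lowest in replicate 3 in both groups, where 20.2% of all genes were. The 12 were ACAT2, HMGCS1, FDPS and GGPS1 of the mevalonate part, CYP51A1, MSMO1, NSDHL, EBP and DHCR7 of the sterol part, and the regulators INSIG1, SCAP and SREBF1. For CYP51A1 in siG9a this rested on 4 reads in replicate 3 against 3 reads each in replicates 1 and 2. Relative to the median of the other 3 libraries of its group, replicate 3 held 3.33 and 2.90 times the INSIG1 level in control and siG9a, 1.997 and 2.83 times the DHCR7 level and 1.74 and 2.02 times the NSDHL level. Below the median of the other libraries in both groups were 4 members (14.3%, against 36.7% of all genes): SREBF2 at 0.49 and 0.74 times, LSS at 0.67 and 0.75 times, HSD17B7 at 0.77 and 0.60 times and INSIG2 at 0.90 and 0.55 times. INSIG2 had only 4 and 3 reads in the control and siG9a replicate 3 libraries. The median shift of the 28 members on log2(CPM + 1) was 0.35 in control and 0.40 in siG9a, against 0.01 and −0.01 over all genes. Above 0 in both groups were 18 members (64.3%) and 36.2% of all genes. These are the libraries in which muscle markers were low and NEFM and NEFL high, and in bulk RNA fewer cells of a type and less RNA per cell cannot be told apart. The part of these marker shifts in the levels of the cholesterol genes was not tested.

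**Figure D4:**
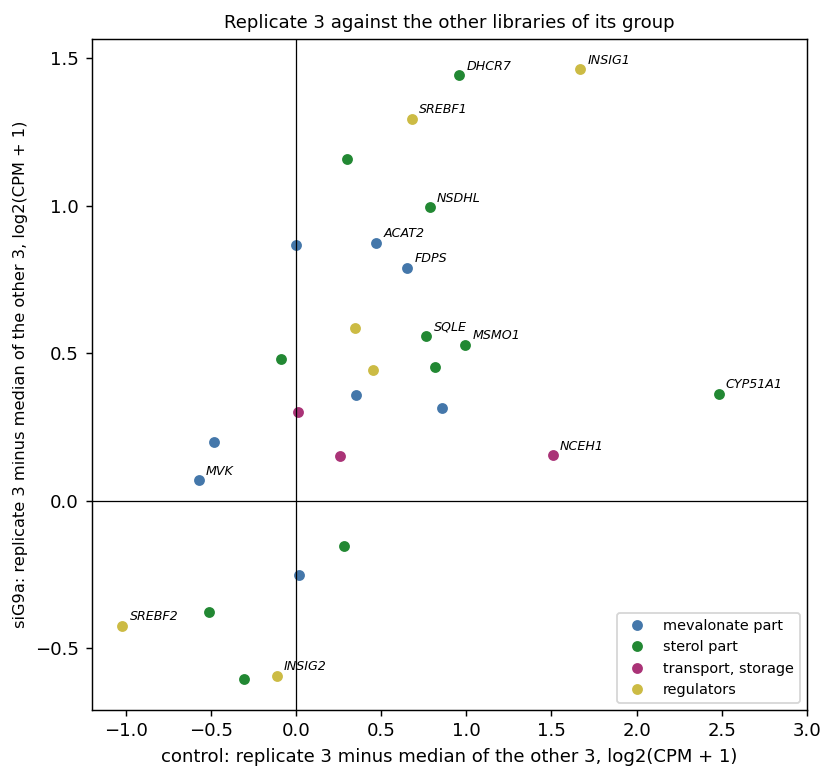
Level of replicate 3 minus the median of the other 3 libraries of its group, on log2(CPM + 1), in control (horizontal) and siG9a (vertical), with a point per tested member coloured by class. Of the 28 points, 18 lie above 0 on both axes, with INSIG1 and DHCR7 farthest up, and SREBF2 lies at the lower left.

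Without both replicate 3 libraries, limma with no block called 1 of 28 members, NCEH1, among 413 genes, and 21 members lay above 0. With the block and without replicate 3, again only NCEH1 was called, among 1078 genes. The share of reads on mitochondrial genes, which takes part in every CPM value, was 6.01% in control (SD 2.16, n = 4) and 9.21% in siG9a (SD 4.02, n = 4), higher in siG9a in 4 of 4 pairs. Its part in the results was not tested.

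Genes next to the cholesterol pathway were counted over 4 lists. Of 15 genes listed under fatty acid synthesis, an SREBP1-driven pathway, 6 lay above and 9 below 0, with a median log2 change of −0.16. That list also held genes that are not enzymes of fatty acid synthesis, among them LPIN1 and TMEM97. limma called 0 of 15 on all 8 libraries without a block, and 3 fell with it (6.52% of all genes were called lower). Of these, FADS1 and ELOVL6 were also called without a block by DESeq2 (adjusted p 0.00746 and 0.0141) and by limma without both replicate 3 libraries (0.00196 and 0.0350). FADS1 alone was called by limma without control replicate 3 (0.00874). FADS1, the delta-5 desaturase of polyunsaturated fatty acids, measured 544, 566, 248 and 557 CPM in control and 210.4, 216, 135 and 254 CPM in siG9a, lower in 4 of 4 pairs. All siG9a libraries except replicate 4 lay below all control libraries. The log2 change of siG9a against control was −1.19 ± 0.14 (SE, block), with a limma adjusted p of 4.36e-06 with and 0.134 without the block. ELOVL6, which elongates palmitate, measured 22.6, 25.5, 28.9 and 30.1 CPM in control and 6.19, 3.63, 12.6 and 14.9 CPM in siG9a. The groups did not overlap, and the log2 change was −1.59 ± 0.29 (SE, block), with a limma adjusted p of 0.000715 with and 0.134 without the block. Both calls held in the 4 blocked fits that left out a pair, with adjusted p-values up to 0.000672 for FADS1 and 0.0212 for ELOVL6. ACSL3 (log2 change −0.52, adjusted p 0.0491 with the block) kept its call only without replicate 1, with adjusted p-values of 0.0412 to 0.241, and was at −0.32 without replicate 4. Exons of FADS1 overlap those of FADS2 on the other strand, those of ERLIN1 (below) CHUK on the same strand, and those of VLDLR (below) VLDLR-AS1 on the other strand.

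In the list of SREBP processing and sterol-regulated degradation, 12 of 13 symbols were found and tested, with a median log2 change of 0.05. The list held an old and a new symbol of the same gene. With the block 1 of 12 was called higher and 1 lower, where 4.86% and 6.52% of all genes were. ERLIN1, an endoplasmic reticulum protein that binds cholesterol and restrains SREBP, rose with the block from 9.98 ± 2.43 to 21.9 ± 5.29 CPM (SD, n = 4 each), its groups not overlapping. On the log2 scale the change was 1.06, limma adjusted p 0.0136 with and 0.207 without the block, and the call held only when replicate 4 was the pair left out (adjusted p-values of 0.0118 to 0.0964). UBE2G2, a ubiquitin-conjugating enzyme of that degradation, fell with the block by 0.53 on the log2 scale, limma adjusted p 0.0328 with and 0.614 without the block. That call too held only without replicate 4, with adjusted p-values of 0.0113 to 0.308. Its log2 change was −0.12 without siG9a replicate 1, and −0.29 in the blocked fit without replicate 1.

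Of 12 genes that use isoprenoids (prenyltransferases, ubiquinone and dolichol synthesis), 7 lay above and 5 below 0, median 0.12, and 1 was called higher with the block (4.86% of all genes). DHDDS, a subunit of the dolichol-forming prenyltransferase, was higher with the block (22.3 ± 5.91 to 35.7 ± 3.23 CPM, SD, n = 4 each), without overlap, at a limma adjusted p of 0.0443 with and 0.321 without the block. None of the 4 fits with a pair left out kept the call, with adjusted p-values of 0.0795 to 0.185. Of 24 genes listed under sterol transport 23 were tested, 9 above and 14 below 0, median −0.20. That list also held MYLIP, NR1H3 and LPCAT3, which are not transport proteins. With the block 2 of 23 fell, where 6.52% of all genes were called lower: VLDLR, a lipoprotein receptor, from 5.66 ± 2.19 to 1.27 ± 0.86 CPM, and SCARB1, the receptor for high-density lipoprotein, from 25.02 ± 7.70 to 13.03 ± 7.66 CPM (SD, n = 4 each). For VLDLR, without overlap of the groups, limma's adjusted p was 0.0130 (block) and 0.213 (no block), and for SCARB1 0.0139 and 0.315. With a pair left out they ran from 0.0464 to 0.055 for VLDLR, called only without replicate 4, and from 0.0276 to 0.0936 for SCARB1, called without replicate 3 and without replicate 4. In this list 3 of 23 were lower without overlap (3.45% of all genes): VLDLR, and ABCA2 and OSBPL9, which were not called, with blocked adjusted p-values of 0.124 and 0.282.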

How the data were processed

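The deposited table holds CPM that the authors computed for 60234 genes in 8 libraries, to 2 decimals. Per the submitters' processing notes the tools named are FastQC 0.11.8, Trim Galore, STAR 2.5.0a, HTSeq 0.8.0 and edgeR 3.28, and the builds GRCh38 and hg19, with no role given; strand setting and annotation are not given in the sources used here. Of the non-zero values, 100% were whole multiples of 1 read (within 0.005 CPM), so reads were recovered. From 3 reads, the floor, 1.55 to 2.06 CPM follow.

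The test was limma 3.58.1 (R 4.3.3) on log2(CPM + 1), eBayes with trend, two-sided, for the 15092 genes averaging 1 CPM or more, with Benjamini-Hochberg adjustment over all of them and a threshold of 0.05. A fold change on this scale understates that of low genes. The group was the only term. The other fit took replicate numbers as blocks. Deviations of same-numbered libraries from their group means had correlations across genes of 0.50, 0.10, 0.67 and 0.13. Deviations within a group cancel out, and libraries of unlike number were not compared. These correlations therefore cannot show that the numbers pair the libraries. The numbers come from the sample titles, and the series text calls the replicates biological without saying what was repeated, so p-values measure the spread between these libraries. edgeR 4.0.16 and DESeq2 1.42.0 were run on the recovered reads. Scripts were tested on simulated data in which same-numbered libraries were given shared means.

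Members and lists were chosen with earlier results of these data known, and no p was adjusted over a list. Given by library were members called or at an unadjusted p under 0.05 in either fit, without overlap, with a mean of at least 100 CPM, or in the INSIG and SREBF paralog pairs, and some others. GENCODE 29 was used for overlaps between exons: 13 members share exon positions with another gene, 12 of them with one on the other strand, and FDPS, CYP51A1 and HSD17B7 have named pseudogenes. Wilson and exact intervals are at 95% and cover counting error only.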

Additional observations from a re-analysis of the deposited data

Results flagged for a closer look

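Dixon's ratio was computed for every tested member in control and in siG9a. Of 56 sets of 4 libraries, 4 held a value past the 95% limit, and about 2.8 are expected by chance. Control replicate 3 accounted for 3 of them. MVK was low in that library at 24.6 CPM, the remaining control values being 36.5 to 37.4 CPM. SQLE was high at 68.9 CPM, against 38.4 to 42.06 CPM, and CYP51A1 was high at 7.99 CPM, against 0.52 to 0.69 CPM. In siG9a replicate 1, IDI1 was high at 19.1 CPM, against 4.59 to 5.71 CPM.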

How the results depend on the processing

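The number of genes called without a block (0) moved to 1717 with the replicate block, 18 with no filter, 413 without both replicate 3 libraries and 292 with DESeq2, and ran from 0 to 300 with a library left out, the 300 being without control replicate 3. With the block it was 1711 with edgeR, 936 with DESeq2, 1692 with median-ratio scaling, 1688 with quantile normalization, 1363 and 1710 with pseudocounts of 0.1 and 5, and 951, 668, 1078 and 1393 without replicates 1 to 4. The number of members called (0) was 1 in each of these blocked settings except DESeq2 (0, where NCEH1 had no adjusted p) and the fit without replicate 1 (2, NCEH1 and ACAT2). It was also 1 without both replicate 3 libraries and 0 to 1 with a library left out. The scaling, pseudocount 0.1 and pseudocount 5 fits with the block were chosen after the data were seen. The block changed no other call of a member, and in the 4 lists of other genes it added 8 calls (FADS1, ELOVL6, ACSL3, ERLIN1, UBE2G2, DHDDS, VLDLR and SCARB1), beside that of EHMT2. With the block, DESeq2 called neither ACSL3, ERLIN1, UBE2G2, DHDDS nor SCARB1 (adjusted p 0.0591 to 0.163) and gave VLDLR no adjusted p. ACSL3 and UBE2G2 were also lost with quantile normalization (0.0664 and 0.0604), and ACSL3, UBE2G2 and DHDDS with a pseudocount of 0.1 (0.0727, 0.0617 and 0.0586). The log2 change of INSIG2 turned to −0.0091 with quantile normalization, without and with the block, to −0.054 without control replicate 4, −0.045 without siG9a replicate 1 and −0.085 without siG9a replicate 4, and in the blocked fits to −0.022 without replicate 1 and −0.155 without replicate 4. That of INSIG1 turned to −0.179 without control replicate 2, −0.108 without siG9a replicate 3 and, with the block, −0.034 without replicate 1. With a library left out they ran up to 0.153 for INSIG2 and 0.675 for INSIG1. The cause was not tested. The class medians moved by less than their spread over pairs in all settings, but that of the synthesis enzymes was below 0 without control replicate 2 (−0.011) and in the blocked fit without replicate 1 (−0.095). Depth limits TM7SF2, HSD17B7, CYP51A1, INSIG2, STARD4, NCEH1 and ABCA1 most. Exons of TM7SF2 (with VPS51), GGPS1 (with TBCE) and CYP51A1 also overlap those of another gene on the same strand. The part of these overlaps in the levels was not tested.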
